A study of Mus musculus with 2 samples.

Results

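The miRNA hairpin genes that lie around Rtl1 in the imprinted Dlk1-Dio3 region of mouse chromosome 12 were followed in adrenal gland. The 10 members, among 2202 miRNA genes counted, were Mir337, Mir3544, Mir540, Mir665, Mir431, Mir433, Mir127, Mir434, Mir432 and Mir136. They were chosen by a rule of name and position that uses no values, though with earlier results of these data known. MicroRNA sequencing was carried out on total RNA of adrenal glands from female B6CASTF1/J mice, a hybrid strain, at 2 months of age, with no treatment named. The labels give 1 group with 2 biological replicates, numbered as different females but carrying the same donor label, so SDs measure the spread between samples, part of which may be technical. No contrast between conditions exists. The counts are not split by parental allele, so imprinting itself was not measured.

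Imprinted genes of the Dlk1-Dio3 region are expressed mainly from a single parental chromosome. In mouse, the protein-coding genes Dlk1, Rtl1 and Dio3 are read from the paternal chromosome, while the noncoding RNAs and the miRNAs are read from the maternal one. Rtl1 descends from a retrotransposon and is needed for the fetal capillaries of the mouse placenta. Because the maternal transcript runs antisense through Rtl1, miRNAs cut from it match Rtl1 mRNA perfectly and can direct its cleavage, whereas on other mRNAs a miRNA acts mainly through its seed, bases 2 to 8. In the adrenal gland, Dlk1 is known from progenitor cells of the capsule and outer cortex.

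The name Rtl1 antisense fits 6 of the 10 members by position (GENCODE M21, mm10). Mir431 (chr12:109590447-109590537), Mir433 (chr12:109591715-109591838), Mir127 (chr12:109592846-109592915), Mir434 (chr12:109594506-109594599), Mir432 (chr12:109594956-109595030) and Mir136 (chr12:109595327-109595388) lie on the plus strand, entirely opposite the Rtl1 coding sequence (chr12:109590172-109595403, minus strand). Mir337 (chr12:109585789-109585885), Mir540 (chr12:109586080-109586146) and Mir665 (chr12:109586314-109586407) are also on the plus strand but outside the annotated Rtl1 gene, whose 3′ end is 3307, 3046 and 2785 bases away. Mir3544 (chr12:109585813-109585873) lies within Mir337 on the minus strand, the strand of Rtl1, and is therefore not antisense to it. All 10 members fall within 9600 bases.

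The mature miRNAs of the 9 members found in both libraries are shown because the seed and the perfect Rtl1 match are read from them (RefSeq, GRCm38.p6; all 10 members were matched by symbol). They run 5′ to 3′ with the seed in capitals, first those made opposite the Rtl1 coding sequence.
miR-431-5p: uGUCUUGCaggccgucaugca
miR-431-3p: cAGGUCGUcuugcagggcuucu
miR-433-5p: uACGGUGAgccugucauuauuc
miR-433-3p: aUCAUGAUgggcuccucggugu
miR-127-5p: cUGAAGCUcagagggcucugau
miR-127-3p: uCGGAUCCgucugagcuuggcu
miR-434-5p: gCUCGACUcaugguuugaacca
miR-434-3p: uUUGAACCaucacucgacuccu
miR-136-5p: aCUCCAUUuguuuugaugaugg
miR-136-3p: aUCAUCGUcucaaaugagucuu

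The remaining members found in both libraries are made outside Rtl1.
miR-337-5p: cGGCGUCAugcaggaguugauu
miR-337-3p: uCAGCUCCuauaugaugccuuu
miR-3544-5p: aGAAAGGCaucauauaggagcug
miR-3544-3p: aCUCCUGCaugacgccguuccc
miR-540-5p: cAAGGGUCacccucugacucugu
miR-540-3p: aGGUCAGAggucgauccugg
miR-665-5p: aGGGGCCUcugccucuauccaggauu
miR-665-3p: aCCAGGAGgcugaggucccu

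The 18 sequences carry 18 distinct seeds, so no seed family exists within the cluster. Among all 1738 mature mouse miRNAs in the same table, only miR-540-3p shares its seed with another miRNA, that of Mir6915, which had 3 counts in replicate 1 and 2 in replicate 2 and was not detected. The counts are per hairpin, so the 5p and 3p arms could not be told apart, and no level can be given to either sequence of a pair.

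Perfect complements were searched in all protein-coding transcripts of GENCODE M21. The 11 mature miRNAs of the 6 members opposite the Rtl1 coding sequence, miR-432 included, each matched Rtl1 at 1 site and no other protein-coding gene. The 8 mature miRNAs of Mir337, Mir3544, Mir540 and Mir665 had no perfect complement in any. Sites opposite the most abundant member and opposite Mir136, the member nearest the Rtl1 start codon, are shown on the Rtl1 mRNA strand with the seed complement in capitals. They begin in codons 832 and 18 (chr12:109592888-109592909 and chr12:109595331-109595352, mm10, minus strand).
Rtl1 site for miR-127-3p: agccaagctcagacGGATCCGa
Rtl1 site for miR-136-5p: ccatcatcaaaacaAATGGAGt

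These matches follow from the positions of the hairpins. Rtl1 mRNA was not measured.

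The cluster was expressed in the adrenal gland, and Mir127 dominated it. The members together held 59382 of the 2839732 sense-strand miRNA gene counts of replicate 1, or 2.09% (Clopper-Pearson 95% interval 2.07 to 2.11), and 73807 of 2280028 in replicate 2, or 3.24% (3.21 to 3.26), a mean of 2.66% ± 0.810 (SD, n = 2). The intervals cover counting error only, and the libraries lie outside each other's intervals. Without Mir127 the share was 0.691% in replicate 1 and 0.801% in replicate 2. Detection was set at a minimum of 10 counts in each library. By that rule 9 of 10 members were detected, against 15.5% of all 2202 genes. Levels are given as CPM, the counts scaled to a total of 1000000 sense-strand miRNA gene counts in each library. Reads aligned to several places, 28.8% of reads in replicate 1 and 25.3% in replicate 2, are in no gene count. Genes with copies elsewhere can thus be undercounted, which limits shares, ranks and detection compared with all genes.

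**Figure D1:**
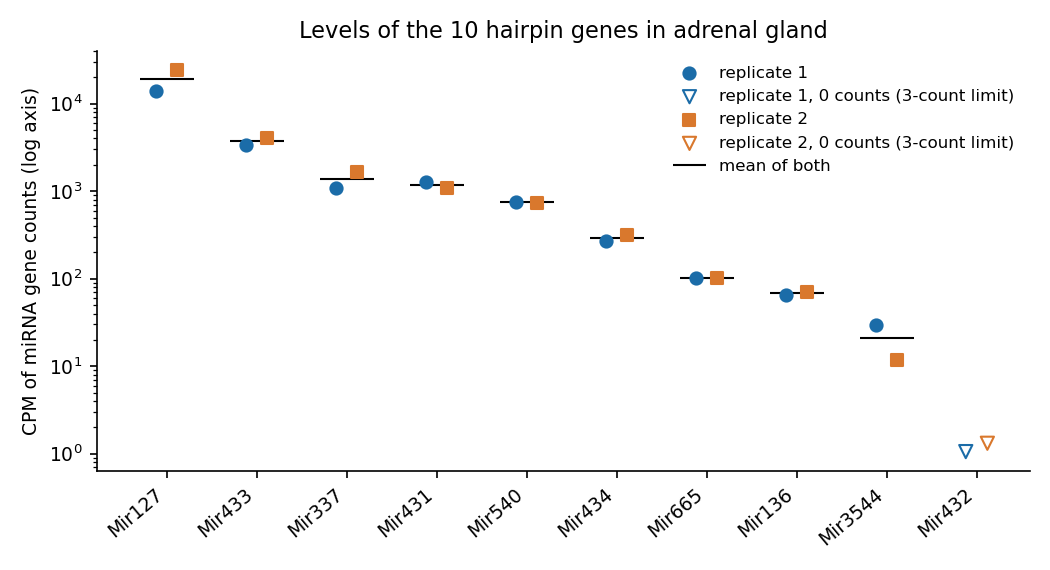
CPM (log axis) of the 10 members, ordered by mean, in replicate 1 (circles) and replicate 2 (squares), with the mean of both as a line and open triangles at the 3-count limit where a library had 0 counts. Mir127 stands above the other members in both libraries, and Mir432 had no count.

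Of the members opposite the Rtl1 coding sequence, Mir127, whose loss in mice disturbs the placental labyrinth, had 39750 counts in replicate 1 and 55533 in replicate 2, or 13998 and 24356 CPM. It ranked 17 and 12 among all genes and made up 66.9% and 75.2% of the cluster's counts. Its hairpin is shown with the 5p and 3p arms in capitals, since it accounts for most reads of the cluster.
Mir127 hairpin: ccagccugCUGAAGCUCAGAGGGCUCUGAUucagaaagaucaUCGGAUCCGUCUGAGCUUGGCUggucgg

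Mir433, whose human counterpart is known to repress the growth factor FGF20, followed with 3358 CPM in replicate 1 and 4047 in replicate 2. Mir127 exceeded it 4.17-fold in replicate 1 and 6.02-fold in replicate 2. Mir431, known in mouse muscle stem cells for repressing the myogenic factor Pax7, was at 1258 and 1097 CPM in replicates 1 and 2. These 3 genes stand next to each other along Rtl1.

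Lower levels were measured toward the 5′ end of the Rtl1 coding sequence. Mir434 reached 271 CPM in replicate 1 and 313 in replicate 2, and Mir136 reached 65.1 and 70.6 CPM (185 and 161 counts). Mir432 had 0 counts in both libraries, which allows up to 3 counts per library, or 1.06 CPM in replicate 1 against 1.32 CPM in replicate 2. Mir432 lies between Mir434 and Mir136, so a gene without a count stood between detected neighbours. Its hairpin had a predicted folding energy of -0.32 kcal/mol per base (RNAfold), the weakest of the 10, which spanned -0.61 (Mir540) to -0.32. A role of folding in the levels was not tested.
Mir432 hairpin, mature miRNA in capitals: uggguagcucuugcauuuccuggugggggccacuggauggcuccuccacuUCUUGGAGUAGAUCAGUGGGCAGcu
Mir434 hairpin, both arms in capitals: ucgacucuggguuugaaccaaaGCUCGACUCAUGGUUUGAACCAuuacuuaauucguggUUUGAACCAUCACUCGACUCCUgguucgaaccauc

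The Mir434 hairpin holds a repeat: the 13 bases ugguuugaaccau occur in it 2 times, each overlapping a mature arm. No other member had an internal repeat of more than 10 bases. No member shared a stretch of 20 bases with another RefSeq hairpin on the same strand. Other places in the genome were not searched here.

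Outside Rtl1, Mir337 reached 1080 CPM in replicate 1 and 1639 in replicate 2. Mir540, the next plus-strand gene, was at 750.4 and 734 CPM and Mir665 at 101.1 and 100.9 CPM. Mir3544, opposite Mir337, had 85 and 27 counts, or 29.9 and 11.8 CPM. Levels thus spanned from 11.8 to 24356 CPM among detected members of the same short stretch.

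**Figure D2:**
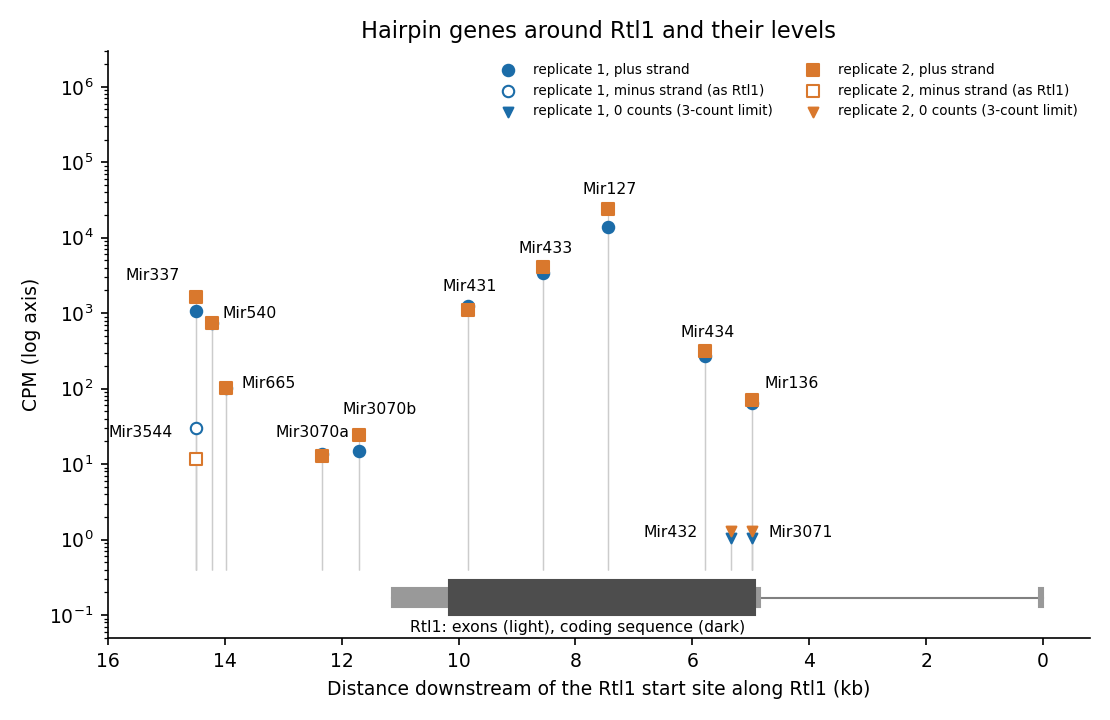
CPM (log axis) of the 10 members and the 3 other annotated hairpins of the stretch against their distance downstream of the Rtl1 start site in kb, with circles for replicate 1, squares for replicate 2, open symbols for genes on the Rtl1 strand and triangles for 0 counts drawn at the 3-count limit. The Rtl1 exons are drawn at the bottom, and Mir127 and Mir433, opposite the coding sequence, are the highest in both libraries.

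Another 3 annotated hairpins of the stretch are not members. Mir3070a had 39 and 29 counts (13.7 and 12.7 CPM) in replicates 1 and 2, and Mir3070b had 43 and 55 counts (15.1 and 24.1 CPM). Both were detected between Mir665 and Mir431 on the plus strand, at levels near that of Mir3544. Mir3071, on the minus strand opposite Mir136, had 0 counts in both libraries.

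The order of the members by mean CPM was Mir127, Mir433, Mir337, Mir431, Mir540, Mir434, Mir665, Mir136, Mir3544 and Mir432. In 8 of the 9 neighbouring pairs the order was the same in both libraries and the gap exceeded both SDs. The exception was Mir337 (1360 ± 395 CPM) and Mir431 (1177 ± 113 CPM), which exchanged places between the libraries. A read covers a whole mature miRNA, so CPM was not divided by length. Per 100 bases of hairpin, Mir136 moved above Mir665, and the other 8 kept their places. The level most like that of Mir127 outside the region, by Euclidean distance of log2(CPM + 1) over the 2 libraries, was Mir652 (0.48), followed by Mir143 (0.59) and Mir23a (0.75).

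The libraries were compared gene by gene, as replicate 1 over replicate 2, by an exact two-sided binomial test with Benjamini-Hochberg adjustment over 369 genes, those whose counts averaged 10 or more. The test covers counting error and compares these libraries only. A gene passed where the adjusted p was under 0.05 and the levels differed 2-fold or more. Of the 9 members tested 1 passed, against 18.7% of all genes tested. That member was Mir3544, with 85 counts in replicate 1 and 27 in replicate 2, a CPM ratio of 2.53 (95% interval 1.62 to 4.06, adjusted p = 2.25e-05 by the exact binomial test). Of all tested genes, 10% passed as higher in replicate 1 and 8.67% as higher in replicate 2, where no member passed. Without the minus-strand Mir3544, 0 of 8 members passed, of which 5 had an adjusted p under 0.05.

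**Figure D3:**
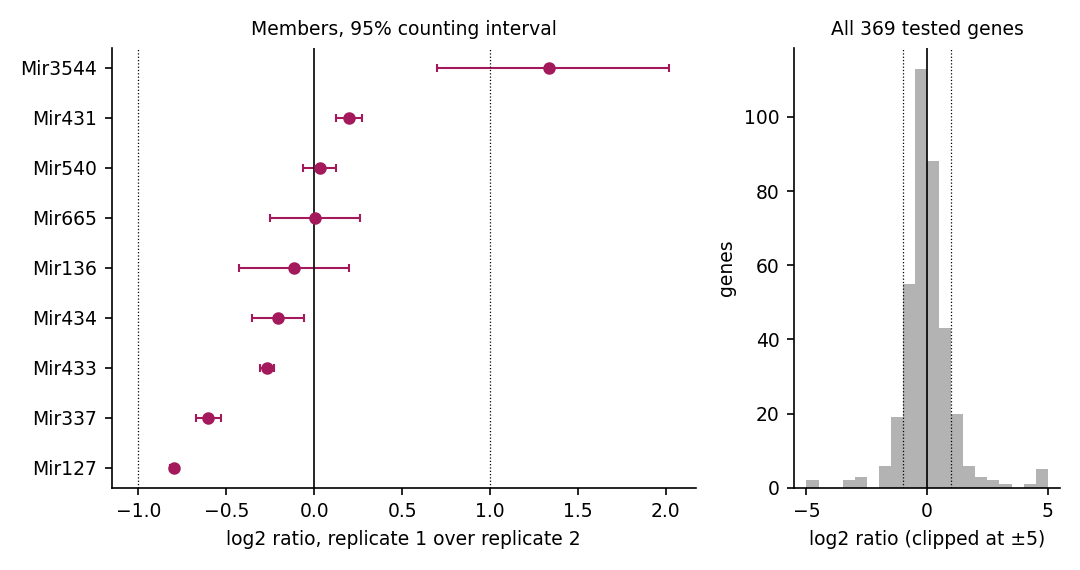
Left, log2 ratio of CPM, replicate 1 over replicate 2, of the 9 tested members with exact 95% counting intervals. Right, number of genes by log2 ratio over all 369 tested genes, clipped at 5 in either direction. Dotted lines mark 2-fold. Among the members, only Mir3544 lies past 2-fold.

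The most abundant member had the second largest difference. Mir127 was lower in replicate 1, at 13998 CPM against 24356 CPM, a ratio of 0.575 (0.567 to 0.582), and 25.7% of all tested genes differed by more. Mir337 was also lower in replicate 1, at 0.659 (0.628 to 0.691) of its level in replicate 2. Mir433 (0.830, interval 0.806 to 0.854) and Mir434 (0.866, interval 0.781 to 0.960) had smaller ratios below 1, while Mir431 was above it (1.15, interval 1.09 to 1.21). With no fold threshold 6 of 9 members had an adjusted p under 0.05 by the exact binomial test, against 62.6% of all tested genes, a share near the background.

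Mir540 (ratio 1.02, interval 0.958 to 1.09), Mir665 (1.002, interval 0.839 to 1.20) and Mir136 (0.923, interval 0.743 to 1.15) had intervals that include 1. Mir337 and Mir540, neighbours on the plus strand, thus had ratios whose intervals do not overlap. The median log2 ratio of the 9 members was -0.12, beside -0.07 over all tested genes. The median size of the log2 ratio was 0.21 for the members and 0.45 for all tested genes. These sizes are not at like levels: the median of mean CPM was 742 for detected members and 130.5 for all detected genes. An exact test over the 2 samples cannot give a two-sided p under 0.5, so none was run.

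**Figure D4:**
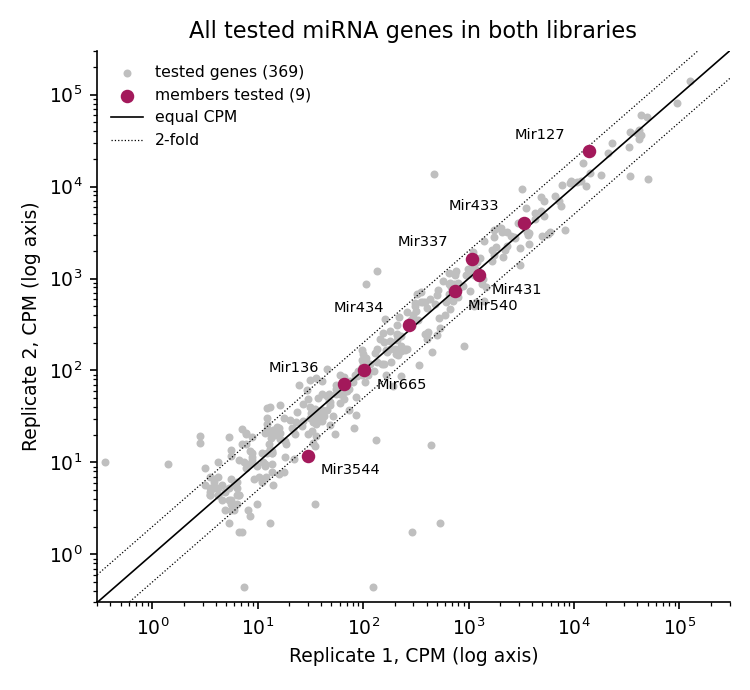
CPM in replicate 1 (x) and replicate 2 (y), both on log axes, of the 369 tested genes (grey) and the 9 tested members (red), with lines of equal CPM and 2-fold difference. Of the members, Mir127 and Mir337 sit furthest above the line of equal CPM and Mir3544 below the lower 2-fold line.

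Strand decided which members kept their reads. The Mir337 hairpin is printed with the stretch that Mir3544 occupies on the other strand in capitals, since both mature miRNAs of Mir337 lie within it.
Mir337 hairpin: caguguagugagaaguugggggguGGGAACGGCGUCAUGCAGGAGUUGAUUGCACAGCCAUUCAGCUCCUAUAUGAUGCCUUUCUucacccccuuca

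On their own strands Mir337 had 3068 counts in replicate 1 and 3738 in replicate 2, and Mir3544 had 85 and 27. Mir3544 thus made up 2.70% of the reads of the pair in replicate 1 (Clopper-Pearson 95% interval 2.16 to 3.32) and 0.717% in replicate 2 (0.473 to 1.04). In the counts taken without regard to strand, reads that touch both genes were left out, and Mir3544 kept 0 counts. All 3068 and 3738 plus-strand reads of Mir337 also touch the Mir3544 stretch and were lost. The 14 and 27 counts that Mir337 kept equal its minus-strand reads outside Mir3544. Mir136, which Mir3071 covers on the other strand, had 185 and 161 sense counts and 0 in both libraries without regard to strand. The other 6 detected members had the same number of counts either way. Without regard to strand, 7 of 10 members would be detected, Mir337 only through its minus-strand reads. On those reads, and not on its own strand, Mir337 would pass as lower in replicate 1.

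The cluster was set beside the other miRNA genes of the region: a list of 8 named after Meg3 and Rian, and a list of 38 from Mir379 to Mir410 downstream, named after Mirg. Mir3072, in the first list, lies within the Mirg gene. No test of a difference between lists was run over the 2 libraries, so these are descriptions. The cluster held 44.9% of the counts of the 56 genes in replicate 1 (Clopper-Pearson 95% interval 44.7 to 45.2) and 54.0% in replicate 2 (53.7 to 54.3). The median member had 511 CPM in replicate 1 and 524 in replicate 2, against 85.9 and 94.7 CPM in the Meg3 and Rian list and 108 and 87.9 CPM in the Mirg list. Mir3070a, Mir3070b and Mir3071, the 3 other hairpins of the stretch around Rtl1, are in no list. With them the middle gene of the stretch would be Mir665, at 101.1 and 100.9 CPM, close to the medians of the other lists. Detected were 9 of 10 members, 7 of 8 genes of the Meg3 and Rian list and 32 of 38 of the Mirg list.

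**Figure D5:**
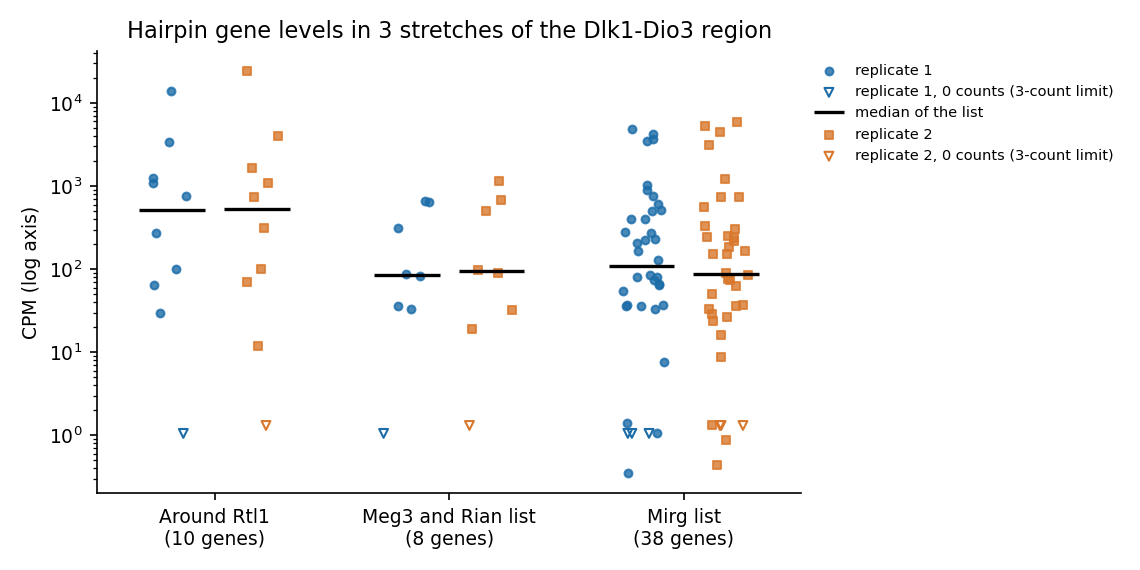
CPM (log axis) of each gene in the cluster around Rtl1 and in the other lists of the region, with circles for replicate 1, squares for replicate 2, lines for list medians and open triangles at the 3-count limit for 0 counts. The medians of the 10 members, 511 and 524 CPM, lie above those of the other lists, and Mir127 is the highest gene of the 56 in both libraries. Mir3070a, Mir3070b and Mir3071 are not drawn.

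The most abundant genes of the neighbouring lists give the scale. Mir379 had 4902 CPM in replicate 1 and 5359 in replicate 2, and Mir541 had 3524 and 5914 CPM, both in the Mirg list. Mir341 was at 653 and 1138 CPM and Mir770 at 649 and 683 CPM in the Meg3 and Rian list. Ratios below 1 of a size close to that of Mir127 (0.575) were thus also measured in Mir541 (0.596, interval 0.581 to 0.612) and Mir341 (0.574, interval 0.540 to 0.609), while Mir379 (0.915) and Mir770 (0.949) were nearer to 1. By the 2-fold rule 1 of 9 tested members, 0 of 7 genes of the Meg3 and Rian list and 5 of 32 of the Mirg list passed, all 6 higher in replicate 1, where 10% of all tested genes passed as higher. The share that passed in the Mirg list was 15.6%, against 18.7% of all tested genes in either direction. By direction, 5 of 32 passed as higher in replicate 1, against 10% of all tested genes, and 0 as higher in replicate 2, against 8.67%.

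The libraries themselves differed in muscle and erythroid markers. By the 2-fold rule 3 of the 3 muscle miRNAs tested and 2 of the 3 erythroid miRNAs passed, against 18.7% of all tested genes. No endothelial, liver, kidney or neuroendocrine marker passed. The 9 skeletal and heart muscle miRNAs summed to 953 CPM in replicate 1 against 4.39 in replicate 2, with 3 of 9 at 0 in both. The sum was mostly Mir206 (534 and 2.19 CPM), Mir499 (288 and 1.75 CPM) and Mir208b (125 and 0.439 CPM). Because reads aligned to several places are not counted, a 0 need not mean absence. The 3 erythroid miRNAs summed to 643 CPM in replicate 1 against 14488 in replicate 2, and most of that sum was Mir451a, at 469 and 13557 CPM. Mir451a and Mir144 (107 and 873 CPM) were higher in replicate 2, as were Mir127 and Mir337, and Mir486 (65.9 and 58.3 CPM) was not. That direction was common: 200 of the 369 tested genes and 5 of the 9 tested members were higher in replicate 2. The endothelial Mir126a was also higher in replicate 2, at 43203 CPM in replicate 1 against 59463 in replicate 2. The hepatocyte miRNA Mir122 was higher in replicate 1, at 3721 CPM against 2358 in replicate 2, and the 4 kidney miRNAs summed to 114 and 101 CPM. Of the neuroendocrine markers, which the adrenal medulla expresses, Mir375 was at 39421 and 37780 CPM and Mir7b at 3101 and 2146 CPM. Both were higher in replicate 1. The part of these markers in the ratios of the members was not tested. The coefficient that edgeR names biological variation was 44.8% between the libraries over the 369 genes (common dispersion). It covers all spread between the 2 libraries beyond counting error, part of which may be technical. In bulk tissue fewer cells that express a miRNA and less of it per cell cannot be told apart.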

How the data were processed

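The values were read counts per miRNA hairpin gene, deposited by the authors as whole numbers without normalization, 1 table per sample; per the file headers deposited beside them, they refer to mm10 and GENCODE M21. The aligner and counter are not given in the sources used here. Columns hold counts with strand ignored, sense counts and antisense counts; the sense column, with the larger single-strand total, was used. The 4 rows that name no gene were left out of totals: unmapped (29.8% and 39.7% of reads in replicates 1 and 2), aligned to several places (28.8% and 25.3%), outside genes (10.8% and 8.60%) and ambiguous (8 reads and 0). All 2202 genes matched GENCODE M21. In CPM, 1 count equals 0.352 (replicate 1) or 0.439 (replicate 2).

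Tests used scipy 1.17.1, dispersion and TMM scaling edgeR 4.0.16, size factors DESeq2 1.42.0 and folding RNAfold 2.7.2. The test was run first on simulated counts with counting error only. Spread between libraries beyond counting error was not simulated. The members and lists were chosen with earlier results of these data known. Named were all members, all other hairpins of the stretch, the 2 most abundant genes of each neighbouring list, the 3 genes most like the most abundant member, and genes sharing a seed. Of 4 neuroendocrine markers, 2 matched a symbol (Mir375 and Mir7b). Alternatives were scaling, count filters, strand, fold threshold, length and leaving out a replicate.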

Additional observations from a re-analysis of the deposited data

Results flagged for a closer look

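Reads on the minus strand of Mir337 that are not counted for Mir3544 form a signal outside the main measurement. The opposite-strand count of Mir337 was 99 in replicate 1 and 54 in replicate 2, of which Mir3544 accounts for 85 and 27. The remainder was 14 reads in replicate 1 and 27 in replicate 2, above the 3 counts that a count of 0 allows, and it equals the count that Mir337 keeps when strand is ignored. Such reads touch the 24 bases before or the 12 bases after the overlap and not the 61 bases of Mir3544. The files do not give their positions. Outlying samples cannot be sought among 2.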

How the results depend on the processing

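No paired analysis was possible because the study has 1 group. The share of counts held by the members was 0.746% ± 0.150 of all reads of the library, a larger denominator, and 0.746% ± 0.0779 of miRNA gene counts without Mir127, a setting chosen after seeing the data. It was 2.94% ± 0.977 without regard to strand, over smaller gene totals (2492422 and 1925204 counts in replicates 1 and 2). When either replicate was left out, it was 2.09% to 3.24%. The number of members that differed between the libraries was 0 at a mean count of at least 100, where Mir3544 was not tested, 0 among plus-strand members (also chosen after seeing the data), and 6 with no fold threshold. It stayed at 1 under TMM, median-of-ratios, no count filter and counts without regard to strand. In the last the gene was Mir337, through its minus-strand reads, and not Mir3544. Over all genes, with no filter 76 passed (10.3%), at a mean count of at least 100 there were 33 (14.1%), and with no fold threshold 231 (62.6%). The share of all genes was 17.6% under TMM, 17.9% under median-of-ratios and 17.3% without regard to strand. Detection gave 7 to 9 members. The median log2 ratio of the members lay between -0.26 and -0.02. Counted without regard to strand, 3 of 10 members kept their place in the order by level, against 8 to 10 under the other settings, 8 to 10 when either replicate was left out. Of 30 single-gene levels recomputed from both libraries, of which 3 are those of Mir432 at 0 throughout, 8 moved by more than 1 SD, all under counts without regard to strand. Of the 8, Mir540, Mir665, Mir431, Mir433 and Mir434 kept the same counts and moved only with the smaller gene totals. Mir337, Mir3544 and Mir136 lost reads. The comparison of the libraries cannot be made with either left out. Depth limits Mir432, Mir3544 and the hairpins with few counts.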
